A study of Mus musculus with 4 samples.

Results

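The genes described here encode the ribosome biogenesis and nucleolar factors of the mouse, measured in morulae after knockdown of Nr1h2, the gene of the oxysterol receptor LXRβ. Members were taken by symbol alone, with no measured value in the rule, though earlier results of these data were known when it was set. They are RNA polymerase I subunits and the Nop, Utp, Noc, Nol and Rrp families. The list also holds the nucleolar Ddx helicases and WD-repeat proteins, snoRNP proteins and nucleolar chaperones. The symbol rule found 82 of the 13658 genes of the authors' deposited table, and each of the 82 had an adjusted p. Wild-type fertilized eggs were injected at the 1-cell stage with 4 to 5 pL of siRNA at 100 µM and grown in M16 medium to the morula, the compacted ball of cells that precedes the blastocyst. There were 4 samples of polyadenylated RNA, 2 that received an siRNA pool against Nr1h2 (siNr1h2) and 2 that received non-targeting siRNA (siNT). Neither the number of embryos per sample nor whether replicates were separate injections is given in the labels. The p-values rest on the authors' modelled spread between these samples, which may be partly technical.

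Ribosomes are assembled in the nucleolus. RNA polymerase I transcribes a long precursor RNA, small nucleolar RNPs (snoRNPs) guide its methylation and pseudouridylation, and large processing complexes fold and cut it into the RNAs of the small (40S) and large (60S) subunits while ribosomal proteins join. In the early mouse embryo the nucleolus forms anew from compact precursor bodies inherited from the oocyte, and ribosome production rises as development proceeds to the blastocyst.

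The values used are those of 1 comparison made by the authors with DESeq2. The mean normalized count is a gene's read count, scaled for library size and averaged over all 4 samples, and the log2 fold change is siNr1h2 over siNT, so that a value of 1 is a doubling. The table analysed here gives no value for a single sample and no total count. The spread between a gene's replicates therefore cannot be seen, only the standard error (SE) that DESeq2 gave for each change. Nr1h2 itself was 5.03 times lower in siNr1h2 in the authors' deposited table (95% interval 3.89 to 6.50), which checks the labels. All 12 morula markers looked for were in the table, with mean normalized counts from 90.8 (Sox2) to 2181. Of the defining markers of other cells, 3 of 10 for cumulus and granulosa cells (at most 14.4, Kitl), 0 of 6 for sperm and 2 of 6 for blood (at most 24.6, Hba-a1) were in the table. The authors' deposited table had 3 of the morula markers called lower in siNr1h2, Klf17 at -0.76, Krt8 at -0.50 and Tdgf1 at -0.52 (log2). The other morula markers were not called. Of those, Krt18 and Gata3 stood at -0.27 and -0.11. The rest lay above 0, from Cdx2 at 0.01 to Pou5f1 at 0.43 (DESeq2 adjusted p = 0.117). The cumulus and granulosa markers Kitl, Foxl2 and Cyp19a1 stood at -1.66, -1.56 and -1.43. Kitl was not called (adjusted p = 0.339), Foxl2 and Cyp19a1 had no adjusted p, and the part of such cells in the results was not tested. In bulk RNA, fewer cells of a type and less RNA per cell cannot be told apart.

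None of the 82 members passed the test. Of these, 0 had a DESeq2 adjusted p under 0.05, where, in the authors' deposited table, 1.98% of the 12069 genes with an adjusted p were called (1.52% called lower). At a threshold of 0.1 there were 2 members, Gnl3 and Wdr43, and 3.27% of all genes. An unadjusted p under 0.05 was met by 12 members, or 14.6%, beside 13.3% of all genes. Of those 12, 11 had a log2 fold change below 0 and 1 above. The 11 are 13.4% of members, where 7.31% of all genes met that rule below 0, and the 1 is 1.22%, where 5.97% of all genes met it above 0. Among the 3755 abundant genes (mean normalized count 500 or more), 10.8% met the rule below 0 and 4.07% above 0. Of the 60 members at that level, 9 met it below 0 and 1 above.

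The changes were small. In the authors' deposited table members ran from a log2 fold change of -0.51 (Utp14b) to 0.45 (Npm3). Their median was -0.05, with 51 of 82 below 0 (62.2%), where the median of all 12069 genes was 0.00 with 49.4% below 0 and that of the abundant genes -0.04 with 57.9% below 0. The Wald statistic (log2 fold change over its SE) had a standard deviation of 1.22 over members and 1.38 over all genes. At the members' median SE of 0.15, an estimated change had to reach 1.41 times to be called. These SEs rest on 2 samples per group, and a true change of that size could still be missed. The 95% interval lay within a 2-fold change in either direction for 79 of the 82 and within 1.5-fold for 64. The other 3 were Npm3, Npm2 and Nol3, which had mean normalized counts of 110, 20.7 and 19.3. To be called, an estimated change had to reach 1.91 times for Npm3, 3.92 for Npm2 and 4.00 for Nol3. An estimate of 2-fold would thus not have been called in Npm2 and Nol3.

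**Figure D1:**
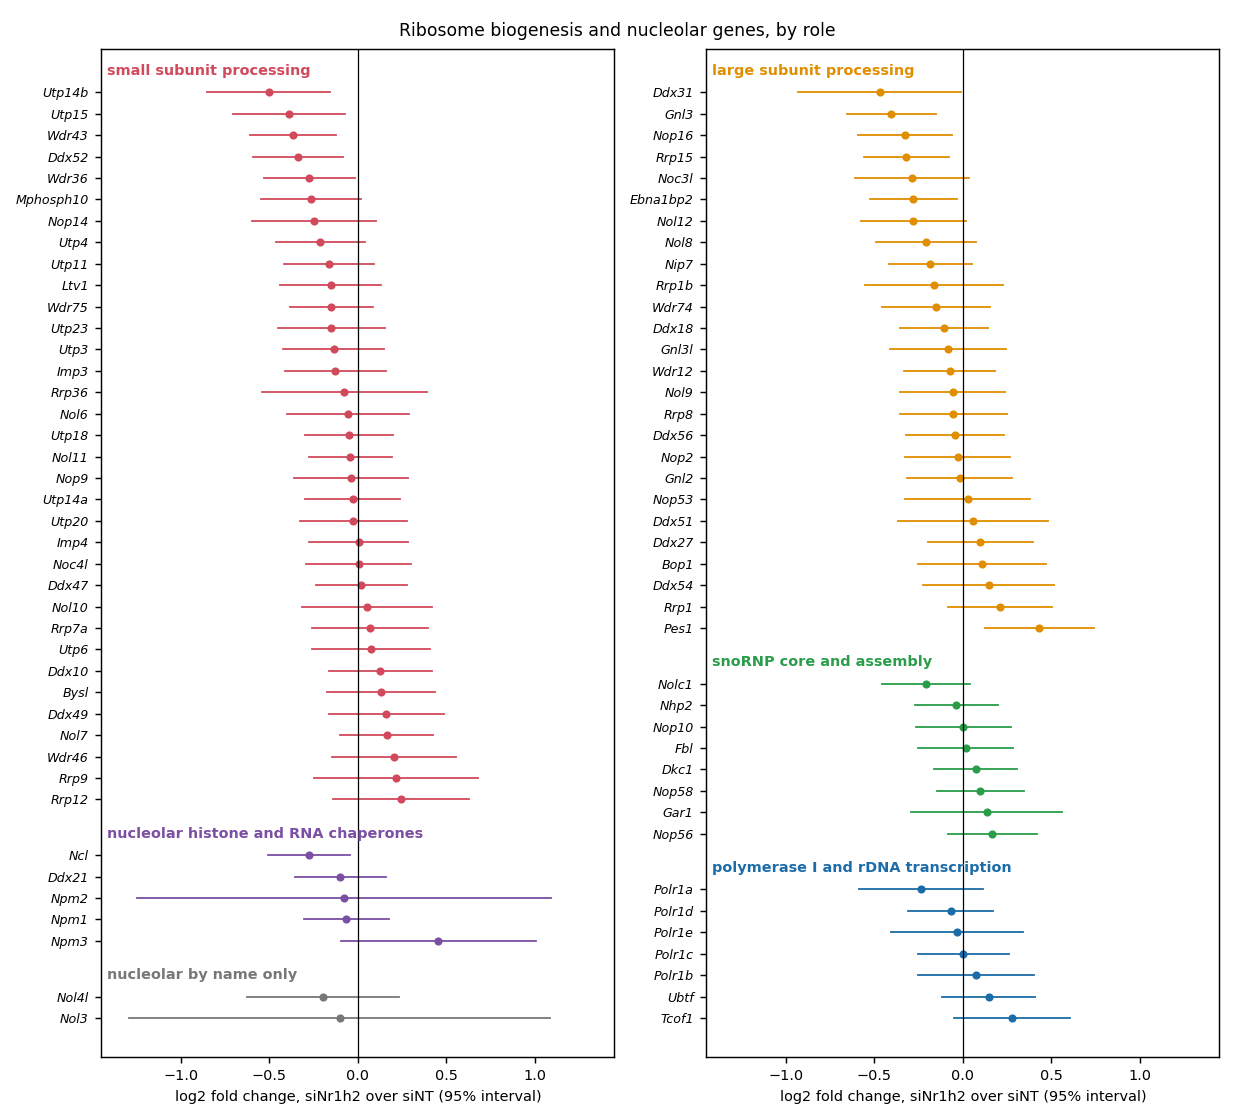
Log2 fold change (siNr1h2 over siNT, horizontal axis) of each of the 82 genes, grouped by role, as points with 95% intervals from the deposited standard errors. The 12 intervals that leave out 0 are 11 below it (among them Gnl3, Wdr43 and Utp14b) and 1 above it (Pes1).

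Transcription of ribosomal DNA was represented by 7 members, and their median log2 fold change was 0.00. None met an unadjusted p of 0.05. In the authors' deposited table the catalytic subunits of RNA polymerase I stood at -0.24 ± 0.18 (SE) for Polr1a and 0.07 ± 0.17 for Polr1b. Polr1c and Polr1d, which RNA polymerase III also uses, stood at 0.00 ± 0.13 and -0.07 ± 0.12, and Polr1e at -0.03 ± 0.19. Ubtf, the factor that keeps ribosomal DNA repeats active, stood at 0.15 ± 0.13 in the authors' deposited table. Tcof1, the nucleolar phosphoprotein mutated in Treacher Collins syndrome, stood at 0.28 ± 0.17 (adjusted p = 0.479), the smallest p of the group. Subunits known by other symbols were near 0 too, with Twistnb at -0.11 ± 0.15, Znrd1 at 0.04 ± 0.13 and Cd3eap at 0.29 ± 0.27 in the authors' deposited table. Rrn3, which recruits the polymerase to its promoter, was at -0.20 ± 0.15. Intervals of all 7 members lay within a 2-fold change.

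None of the 8 snoRNP proteins met an unadjusted p of 0.05. All 8 had intervals within 1.5-fold, 6 lay above 0 and 2 below, and the median log2 fold change was 0.04. Of the box C/D core, which methylates ribosomal RNA, the methyltransferase Fbl (fibrillarin) stood at 0.02 ± 0.14 and its partners Nop56 and Nop58 at 0.17 ± 0.13 and 0.10 ± 0.13 in the authors' deposited table. Snu13, the core protein that binds the RNA kink-turn and lies outside the symbol rule, stood at -0.25 ± 0.12 (adjusted p = 0.317). Of the H/ACA core, which makes pseudouridine, Dkc1 (dyskerin, the pseudouridine synthase) stood at 0.07 ± 0.12, Nop10 at 0.00 ± 0.14, Nhp2 at -0.04 ± 0.12 and Gar1 at 0.14 ± 0.22 in the authors' deposited table. The assembly factor Nolc1 was the lowest of the group at -0.21 ± 0.13 (adjusted p = 0.495).

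Levels differed widely within each core. Per kb of spliced transcript, the mean normalized count over all samples was 18002 for Nhp2, 6216 for Nop10, 1559 for Dkc1 and 183 for Gar1, computed from the authors' deposited table and GENCODE transcript lengths. In the C/D core the same level per kb was 8182 for Snu13, 1415 for Nop58, 1127 for Fbl and 986 for Nop56. Across all 82 members it ran from 6.07 for Nol3 to 37454 for Npm1, with Nhp2, Nop10, Rrp15 (2330), Gnl3 (2169) and Polr1d (2085) next below Npm1. These levels depend on the annotated transcript ends and, for Npm1 above all, on how reads shared with its processed pseudogenes were counted, which is not given in the sources used here.

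**Figure D2:**
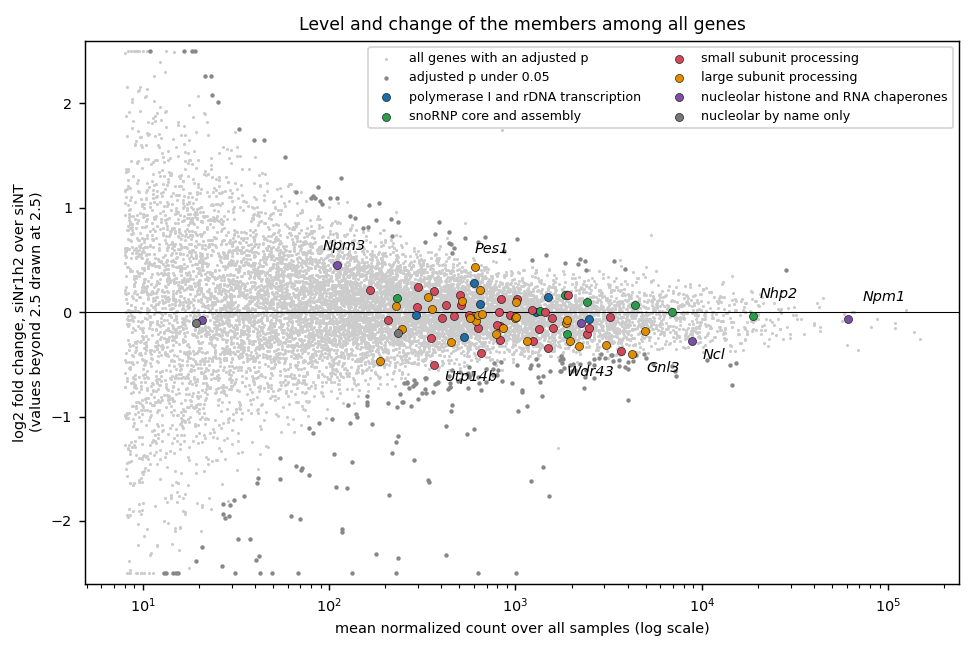
Log2 fold change (vertical axis, values beyond 2.5 drawn at 2.5) against mean normalized count over all samples (log scale) for all genes with an adjusted p (light grey), those called at 0.05 (dark grey) and the members by role. The members span mean counts from 19.3 (Nol3) to 61163 (Npm1), and none lies among the called genes.

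The small subunit group was the largest, with 34 members. These proteins form the small subunit processome on the nascent precursor RNA, or act on 40S particles afterwards. Of the 34, 21 lay below 0 with a median log2 fold change of -0.05, 0 passed the test, and 5 met an unadjusted p of 0.05, all below 0. Those 5 are 14.7% of the group, where 7.31% of all genes and 10.8% of the abundant genes met it below 0. In either direction it was met by 13.3% of all genes and 14.8% of the abundant genes. Wdr43 had the smallest adjusted p of the group, 0.0968, at a log2 fold change of -0.37 ± 0.12 (fold 0.775, 95% interval 0.654 to 0.917) and a mean normalized count of 3678 in the authors' deposited table. Utp14b, an autosomal retrogene copy of Utp14a with a role in the male germ line, stood at -0.51 ± 0.18 (adjusted p = 0.119) and its X-linked parent Utp14a at -0.03 ± 0.14 in the authors' deposited table. The transcripts of such a pair can share reads, and Utp14b lies in the Acsl3 gene (2.79% of its transcript overlaps Acsl3 exons), so its value is uncertain. The helicase Ddx52 stood at -0.34 ± 0.13 (adjusted p = 0.170), Utp15 at -0.39 ± 0.16 (adjusted p = 0.235) and Wdr36 at -0.28 ± 0.13 (adjusted p = 0.333) in the authors' deposited table.

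Arranged by subcomplex, after the values had been seen, the small subunit factors gave a mixed picture, so the following counts are descriptions. UTP-A is the first complex to bind the 5′ end of the precursor and links its transcription to processing. All 6 of its genes looked at lay below 0, with a median of -0.26: Utp15, Wdr43, Heatr1 (-0.30 ± 0.13, outside the symbol rule), Utp4 (-0.21 ± 0.13), Wdr75 (-0.15 ± 0.12) and Nol11 (-0.04 ± 0.12) in the authors' deposited table. Their intervals overlap each other, and none was called. Of all genes 49.4% lay below 0, and of the abundant genes 57.9%. The median of the mean normalized counts of the 6 was 2459. With a trend in GC content and transcript length removed over all genes, Nol11 stood above 0, at 0.03. Wdr75 then stood at -0.09, Utp4 at -0.19, Wdr43 at -0.30 and Utp15 at -0.33. Heatr1, outside the symbol rule, is not given after this step. Of all genes 48.4% then lay below 0. In UTP-B, 4 of 6 lay below 0 with a median of -0.14, from Wdr3 (-0.32 ± 0.13) and Wdr36 to Utp6 (0.07 ± 0.17) in the authors' deposited table. The trimer that joins the processome around Mphosph10 stood at -0.27 ± 0.14 for Mphosph10, -0.13 ± 0.15 for Imp3 and 0.00 ± 0.14 for Imp4. Bysl and Ltv1, which act on late 40S particles, stood on either side of 0, at 0.13 ± 0.16 and -0.15 ± 0.15 in the authors' deposited table. The highest value of the group was that of Rrp12, an export and maturation factor, at 0.24 ± 0.20, followed by Rrp9, a protein of the U3 snoRNP, at 0.21 ± 0.24 in the authors' deposited table.

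The large subunit group held 26 members, of which 19 lay below 0, with a median log2 fold change of -0.08. None passed the test, and 6 met an unadjusted p of 0.05, 5 below 0 and 1 above. Those 6 are 23.1% of the group (19.2% below 0 and 3.85% above). The shares were 13.3% of all genes (7.31% and 5.97%) and 14.8% of the abundant genes (10.8% and 4.07%). Gnl3 (nucleostemin), a nucleolar GTPase abundant in stem cells, had the smallest p of all members. It stood at -0.40 ± 0.13 (fold 0.756, with a 95% interval from 0.636 to 0.899) in the authors' deposited table, with an adjusted p of 0.0640 and a mean of 4224 normalized counts. Its paralogue Gnl3l stood at -0.08 ± 0.17 and the related Gnl2 at -0.02 ± 0.15. Of the assembly factors of the early 60S particle, Rrp15 stood at -0.32 ± 0.12 (adjusted p = 0.177), Nop16 at -0.33 ± 0.14 (adjusted p = 0.240) and Ebna1bp2 at -0.28 ± 0.12 (adjusted p = 0.290) in the deposited table of the authors. The helicase Ddx31 stood at -0.47 ± 0.23 (adjusted p = 0.366) with a low mean of 189. Nip7, among the most abundant of the group with a mean of 4932, stood at -0.18 ± 0.12.

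Pes1 was the one member with an interval wholly above 0. It stood at 0.43 ± 0.16 (fold 1.35, 95% interval 1.09 to 1.67, adjusted p = 0.139) in the authors' deposited table. Pes1 forms the PeBoW complex of 60S assembly with Bop1 and Wdr12, which stood at 0.11 ± 0.19 and -0.08 ± 0.13 in the authors' deposited table. The intervals of the 3 overlap. Rrp1 (0.21 ± 0.15) and its paralogue Rrp1b (-0.16 ± 0.20) stood on either side of 0.

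The nucleolar chaperones ranged widely in level. Npm1 (nucleophosmin), which fills the outer nucleolar layer, was the most abundant of all members. It had a mean normalized count of 61163 and stood at -0.06 ± 0.12 (adjusted p = 0.884) in the authors' deposited table. Its 95% interval runs from a fold of 0.808 to 1.13. Ncl (nucleolin), a histone and RNA chaperone of ribosomal DNA chromatin, had a mean of 8853 and stood at -0.28 ± 0.12 (adjusted p = 0.261) in the deposited table of the authors. The helicase Ddx21 stood at -0.10 ± 0.13 and Npm3 at 0.45 ± 0.28. Npm2, the nucleoplasmin of the egg that remodels chromatin and nucleoli, had a mean of 20.7 in these morulae and stood at -0.08 ± 0.60 in the authors' deposited table. Nol3, an inhibitor of cell death, and Nol4l matched the rule by name only. They stood at -0.10 ± 0.61 and -0.20 ± 0.22 in the authors' deposited table.

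The other genes of the pathway were listed by role, with earlier results of these data known: 133 symbols of which 124 were in the table. Of these 2 passed the test (1.61%, beside 1.98% of all genes), both lower. Rsl24d1, a protein of pre-60S particles that is later exchanged for Rpl24, was 1.33 times lower (95% interval 1.13 to 1.56, adjusted p = 0.0397) in the authors' deposited table. Dcaf13, a small subunit processome protein, was 1.36 times lower (1.14 to 1.62, adjusted p = 0.0436). Neither call held when changes were centred on abundant genes (adjusted p = 0.0761 and 0.0806) or when a trend with GC content and transcript length was removed (0.130 and 0.151). Nmd3, the export adaptor of the 60S particle, stood at -0.41 ± 0.13 (adjusted p = 0.0734) in the authors' deposited table. Pdcd11, a small subunit factor, stood at -0.56 ± 0.21 (adjusted p = 0.151). Of the 124 genes 86 lay below 0 (69.4%, median -0.13), beside 49.4% of all genes and 57.9% of the abundant genes. The 17 that met an unadjusted p of 0.05 (13.7%) all lay below 0. Of all genes 7.31% did so, and of the abundant genes 10.8%. The median of the mean normalized counts was 1105 for the 124 and 201 for all genes. The small subunit factors (28 of 33 below 0, median -0.17) and the exosome and pre-rRNA nucleases (19 of 25, median -0.13) had the lowest medians, and initiation factors and regulators of ribosomal DNA had 7 of 14 below 0 (median -0.05). Rpp38 and Rpp14, subunits of the nucleases RNase P and RNase MRP, stood at -0.34 ± 0.13 and -0.32 ± 0.13 in the authors' deposited table. The snoRNP assembly factors Znhit6 and Nufip1 stood at -0.27 ± 0.15 and -0.26 ± 0.14, and Taf1b, of the polymerase I initiation factor, at -0.29 ± 0.18. Myc, a transcriptional activator of the pathway, stood at 0.39 ± 0.36 in the authors' deposited table. Cytosolic ribosomal protein genes had 24 of 83 below 0 and a median of 0.11.

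**Figure D3:**
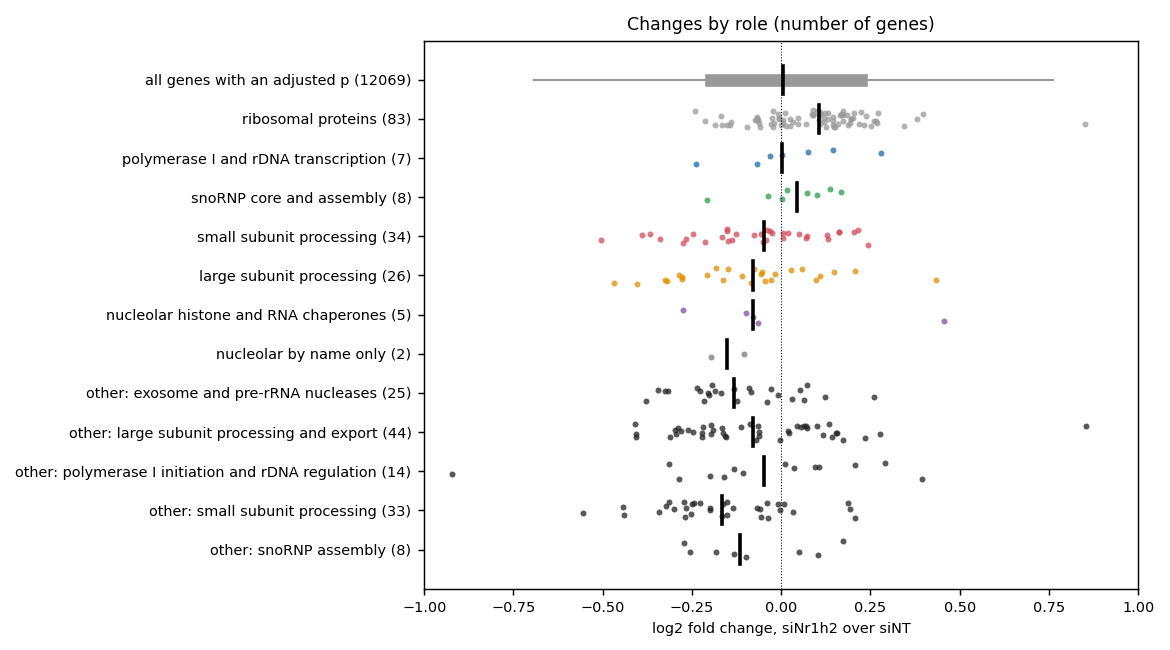
Log2 fold changes by role for the members (coloured), the other ribosome biogenesis genes (black) and ribosomal protein genes (grey); each dot is a gene, jittered vertically, and bars are medians. The top row gives all genes with an adjusted p, the thick line from the 25th to the 75th and the thin line from the 5th to the 95th percentile, and medians run from -0.17 (other small subunit factors) to 0.11 (ribosomal proteins).

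These directions depend on the scaling, since all of them are measured against the size factors of the authors. Measured against the abundant genes, the members' median log2 fold change was -0.01 with 45 of 82 below 0 (all genes: 44.2%). Measured against ribosomal protein genes, which places the median of all genes 0.11 lower, the members' median was -0.16 with 66 of 82 below 0 (all genes: 63.5%). Then 478 of all 12069 genes were called (3.96%), and 7 of the 82 members, all lower: Gnl3, Wdr43, Utp14b, Ddx52, Rrp15, Nop16 and Ncl. The scaling to ribosomal protein genes lowers every value, so it could not have put the members' median above 0. The scaling to abundant genes left that median at -0.01, and it sets the median of the abundant genes to 0 by construction.

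The log2 fold change varied with the base composition of the transcripts. Over the 82 members the log2 fold change and the GC content of the principal GENCODE transcript gave Pearson's r = 0.43 and Spearman's rho = 0.43. Over 11996 genes, which are not independent replicates and share the same libraries, the values were 0.18 and 0.23. Of the 41 members with lower GC content (40.4% to 50.3%), 30 lay below 0, with a median of -0.11, and they held 9 of the 11 that met an unadjusted p of 0.05 below 0. Of the 41 with higher GC content (50.5% to 59.8%), 21 lay below 0, with a median of -0.03. All genes divided at the same GC content had 58.3% and 40.2% below 0. An unadjusted p under 0.05 below 0 was met by 10.9% of all genes on the lower side and 3.57% on the higher, beside 21.95% and 4.88% of members. With the trend in GC content and transcript length removed over all genes, an alternative chosen after seeing the data, 0 members were called. Of all 11996 genes, 170 were then called. The members' median was -0.06 with 47 of 82 below 0, beside a median of 0.01 and 48.4% below 0 for all genes. An unadjusted Wald p under 0.05 was then met by 10 members below 0 and 2 above, and by 6.11% of all genes below 0. Gnl3 then stood at an adjusted p of 0.204. The part of base composition in these values was not tested.

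**Figure D4:**
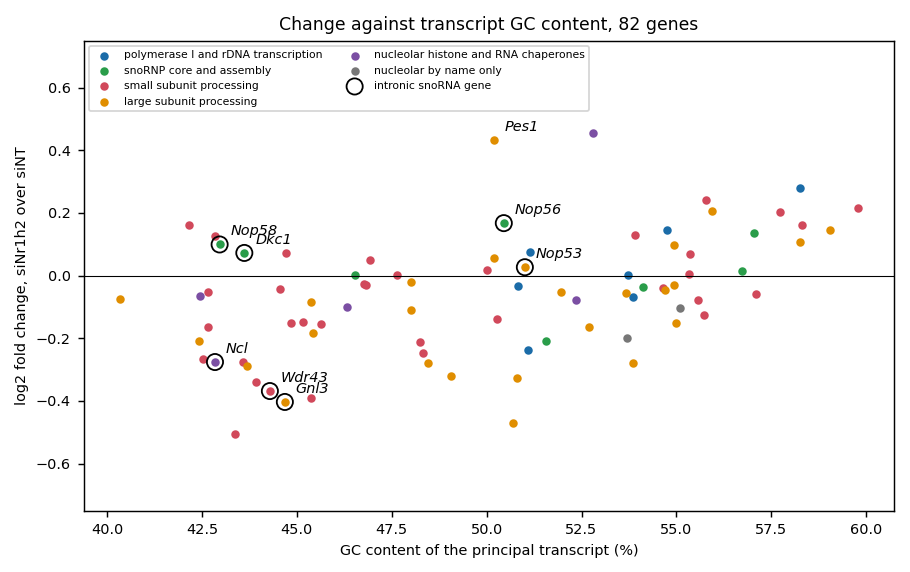
Log2 fold change (vertical axis) against GC content of the principal transcript (horizontal axis, percent) for the 82 members, coloured by role; rings mark genes with snoRNA genes in their introns. Points lie lower on the left: 30 of the 41 genes with lower GC content are below 0, against 21 of the other 41.

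Several members also carry snoRNA genes in their introns, which are released when the host transcript is spliced. In the GENCODE annotation these were 7 of the 82. Gnl3 (Snord19 and Snord69), Wdr43 (Snord53 and Snord92) and Ncl (Snora75 and Snord82) are the hosts with values of -0.40, -0.37 and -0.28 given above, and they are 3 of the 11 members that met an unadjusted p of 0.05 below 0. Of all 244 such hosts tested, 14 (5.74%) met it, beside 7.33% of the genes without a snoRNA. The other 4, Nop56, Nop58, Dkc1 and Nop53, lay between 0.03 and 0.17 in the authors' deposited table. Hosts as a whole had a median of 0.03 over the 7 members and 0.02 over the 244 such genes tested. The snoRNAs themselves are not polyadenylated and were not analysed here.

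Promoter windows were searched for 2 elements: CACGTG, the E-box bound by MYC and by other factors of its class, and AGGTCA, the hexamer bound by nuclear receptors, which LXR with its partner RXR binds as a direct repeat spaced by 4 bases. The windows are those of RefSeq on build GRCm38.p6, 250 bases before to 50 after each start, and 67 of 82 members matched one. On either strand, 12 of the 67 held CACGTG (17.9%, against 11.98% of 9583 genes tested) and 7 held AGGTCA (10.4%, against 14.8%). The direct repeat, searched as 2 exact copies, was in 0 windows of members and of all 9583 genes. Since no gene held it, this search cannot set the members apart from other genes. Members with a CACGTG had a median log2 fold change of -0.04 and those without -0.06, and for AGGTCA the medians were -0.04 and -0.05. Wdr43 and Pes1, with values of -0.37 and 0.43, held a CACGTG 17 and 2 bases after the start. For each element, the 3 members with the smallest p-values whose match and flanks lie before the start are shown, with the element in capitals, so that the letters can be set beside the changes.
Utp14b: cgcgggcgcgggCACGTGggtggggtcgtc
Rrp7a: gtgcctgtgcacCACGTGtcctggaactgg
Utp18: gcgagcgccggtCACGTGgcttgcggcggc
Nop16: cgccttctgatgAGGTCActacggggcggg
Nol12: cttgttcgaggcAGGTCAgatgatggaatc
Utp4: ccgcccgcggccTGACCTgcaatggcggcc

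Each window of 30 bases is printed 5′ to 3′ on the strand of its gene, in GRCm38.p6 coordinates: Utp14b at chr1:78658365-78658394 (plus strand), Rrp7a at chr15:83122992-83123021 (minus), Utp18 at chr11:93885769-93885798 (minus), Nop16 at chr13:54590188-54590217 (minus), Nol12 at chr15:78934744-78934773 (plus) and Utp4 at chr8:106893485-106893514 (plus, with AGGTCA on the opposite strand). The E-box begins 63 bases before the start of Utp14b, 208 before Rrp7a and 20 before Utp18, and these genes stood at -0.51, 0.07 and -0.05 in the authors' deposited table. AGGTCA begins 131, 177 and 143 bases before Nop16, Nol12 and Utp4, which stood at -0.33, -0.28 and -0.21. The other 4 members with AGGTCA stood at 0.15 (Ubtf), 0.10 (Nop58), 0.07 (Polr1b) and -0.04 (Nhp2) in the authors' deposited table. The RefSeq start of Utp14b was not found in its principal GENCODE transcript, so its distance holds for RefSeq only. A match describes the letters of the window and is no evidence of binding.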

How the data were processed

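The study measured polyadenylated RNA of 4 morula samples with SMART-Seq v4 and Nextera XT, per the labels' protocols; these kits do not mark strand. The submitters' processing notes name STAR, HTSeq 0.12.4, RSEM, Cufflinks 2.2.1, edgeR, DESeq2 and mm9, with no role or order. Per the file headers, the authors' DESeq2 results give a mean normalized count per gene (unit signal: read counts scaled by size factors), a log2 fold change and its SE, a Wald statistic (a score), a p-value and an adjusted p-value for each gene. No test was refitted, since 1 comparison and 0 columns of per-sample values were at hand. The deposited adjusted p equalled Benjamini-Hochberg values over 12069 genes; the other 1589, with means up to 8.00, had none. Depth per sample is unknown.

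Members called, members below 0 and medians were counted across all genes in Python 3.11.15 with pandas 2.3.3 and scipy 1.17.1, at an adjusted p of 0.05. Intervals are 1.96 SE. Scripts were tested on simulated data. The members and lists were chosen with earlier results of these data known. The text names Nr1h2, the members with the smallest p-values, the extreme changes and the highest means overall and per role, and called genes or the 2 smallest p-values in the wider lists; other genes, among them complex partners, were added after values were seen. Transcript length, GC content and snoRNA genes came from GENCODE vM21 (GRCm38) by symbol (99.3% of genes matched; the principal transcript by APPRIS, then basic tag and support level). Without strand, reads of overlapping genes cannot be told apart: 9 members share at least 10% of their transcript with exons of an opposite-strand gene (Ddx49, Ddx54, Nol3, Nol7, Nol11, Nop9, Rrp7a, Utp14a and Utp23). Promoter orientation was checked against transcript starts, and 58 of 67 members matched.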

Additional observations from a re-analysis of the deposited data

How the results depend on the processing

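The count of called members was 0 in the authors' deposited table and 0 at a threshold of 0.01, with a minimum change of 1.5 times, with no low-count filter, with a mean of at least 50, with Holm adjustment, without unnamed gene models (Gm, Rik and LOC symbols), centred on genes with a mean of at least 500, with a t distribution of 2 degrees of freedom, and with the GC and length trend removed. It was 2 at a threshold of 0.1 (Gnl3 and Wdr43, lower), where 395 of 12069 genes (3.27%) were called, and 7 when centred on ribosomal protein genes, where 478 (3.96%) were. The t distribution called 0 of all 12069 genes, so it says nothing about stability. For the other ribosome biogenesis genes the count of 2 became 0 at a threshold of 0.01, with a minimum change of 1.5 times, with Holm adjustment, centred on genes with a mean of at least 500, with the t distribution and with the trend removed, 9 when centred on ribosomal protein genes, and 3 at a threshold of 0.1 (Dcaf13, Nmd3 and Rsl24d1). Of all 12069 genes, 109 were called at a threshold of 0.01, 175 with the minimum change and 49 with Holm adjustment. Centring on genes with a mean of at least 500 called 224, and removing the trend called 170 of 11996. The cause of the changed counts was not tested. The count of members below 0 ran from 45 to 66 and the median from -0.16 to -0.01 over the alternatives run. No paired analysis was possible because the table gives no values per sample; leaving out replicates and a second count tool could not be run for the same reason. Depth limits the values of Npm2 and Nol3, whose means were under 50.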
